A study of Mus musculus with 56 samples.

Results

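Gene expression of the hippocampus was compared with that of the cerebellum in wild-type (WT) mice. The 6 libraries were chosen by their labels alone: Hippocampus WT (3 libraries) and Cerebellum WT (3 libraries), of 56 samples in the series, with no knockout sample. The series as a whole compares WT with Fmr1 knockout tissues, and N2a neuroblastoma cells depleted of Fmr1 or Mbnl1 with control cells. Fmr1 is the gene of the RNA-binding protein FMRP. The labels give tissue and genotype (WT) for these mice and no age, sex or strain. No treatment or transgene is named for them. They do not say whether libraries came from separate animals, so the p-values measure the spread between these libraries, which may in part be technical. Poly(A)-selected RNA was made into directional libraries, and the deposited table holds read counts and TPM (a length-adjusted share of transcripts) for 15777 genes. Library totals ran from 27963084 to 41384652 counts in hippocampus and from 27452002 to 40722762 in cerebellum.

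The hippocampus is a forebrain region that serves spatial and episodic memory, and its principal cells are the glutamatergic pyramidal neurons of Ammon's horn and the granule cells of the dentate gyrus. The cerebellum is a hindbrain region that serves the timing and learning of movement. Its small glutamatergic granule cells, among the most numerous neurons of the brain, feed the GABAergic Purkinje cells, which are the only output neurons of the cerebellar cortex and are wrapped by Bergmann glia.

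One library stood apart. Hippocampus WT 1 held almost no RNA of the choroid plexus, the tissue in the ventricles that makes cerebrospinal fluid. Ttr, which encodes the thyroid hormone carrier transthyretin and is the plexus's most abundant transcript, stood at 7.335, 3933 and 3049 CPM (its read counts scaled by those of the whole library) in the 3 hippocampal libraries and at 839, 1251 and 1137 CPM in the cerebellar ones. Pearson's r of log2 CPM across genes was 0.982 and 0.984 between this library and the other hippocampal libraries, 0.9945 between those, 0.9929 to 0.9941 within cerebellum and 0.859 to 0.869 between the regions. Results that rest on this library are given with and without it.

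Most genes differed between the regions. Of 15062 genes tested with edgeR, 10450 (69.4%) were called, which here means a Benjamini-Hochberg adjusted p under 0.05. Of these, 5124 (34.0% of tested genes) were higher in hippocampus and 5326 (35.4%) were lower, and with scaling by library size only 4767 were higher and 5735 lower. The scaling used here centres the fold changes near 0, so the balance of directions is not a result. The percentages over all tested genes are the background for the count of each gene list. Fold changes are given as log2 of hippocampus over cerebellum, so a negative value means higher in cerebellum. A value in brackets after a gene is this log2 fold change with, where given, its standard error (SE). Where 2 CPM values are set against each other, they are the means of the 3 hippocampal and the 3 cerebellar libraries. The median over all tested genes was -0.01 and the median absolute value 0.46. Differences of at least 2-fold were found for 3652 genes (24.2%), with 2187 (14.5%) higher and 1465 (9.73%) lower in hippocampus. At 8-fold or more, 549 genes were higher and 277 lower, and at 32-fold or more 214 were higher and 91 lower. In 11083 genes (73.6%) the 3 values of one region all lay above those of the other.

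**Figure D1:**
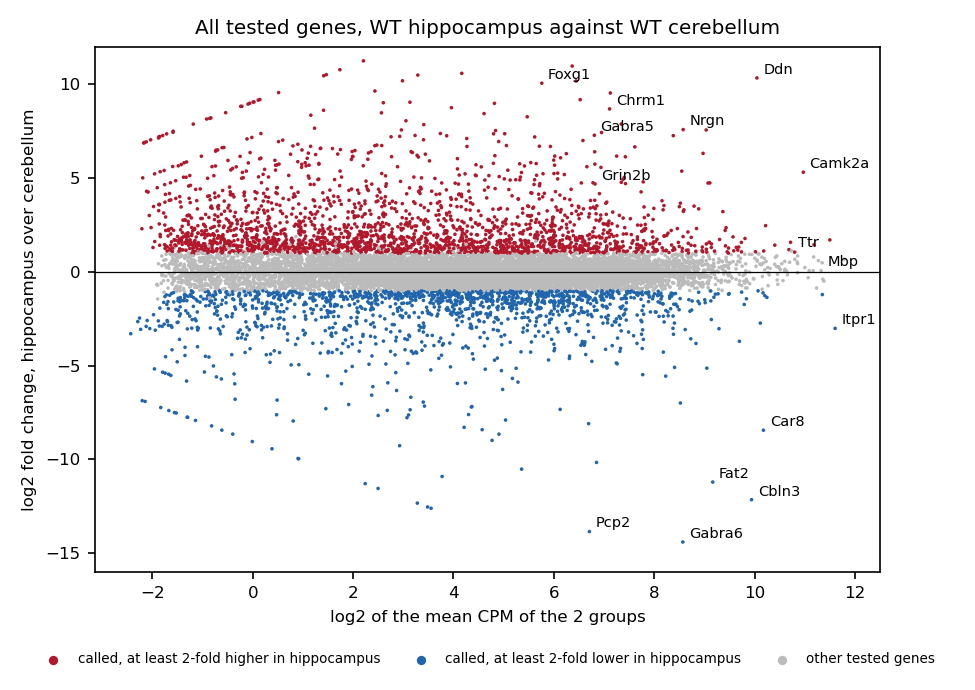
Each point is 1 of 15062 tested genes, with log2 of the mean CPM of both groups on the x axis and the log2 fold change of hippocampus over cerebellum on the y axis; red and blue points are the 2187 and 1465 called genes at least 2-fold higher or lower in hippocampus. The straight rows of points at the outer left edges are genes with few or no counts in one region, whose fitted value depends on the small count that the fit adds.

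Among genes with a mean of at least 20 CPM in the higher region, the largest fitted difference toward cerebellum was that of Gabra6. This gene, the α6 subunit of the GABA-A receptor of granule cells (chr11:42306437-42321072, minus strand, GRCm38), stood at 764, 729 and 786.5 CPM in cerebellum and at 0.0726, 0 and 0.02435 CPM in hippocampus. With 3 counts in all 3 hippocampal libraries together, its cerebellar level was 24453-fold (95% counting interval 8367 to 118577) higher (edgeR adjusted p = 6.2e-11). Pcp2, a regulator of G proteins made in Purkinje cells (chr8:3623371-3625545), stood at 242, 217 and 168 CPM in cerebellum against a single hippocampal count, 19676-fold (95% counting interval 3531 to 777178) higher. Pcp2 overlaps Pet100 on the opposite strand, and the sources used here do not say whether strand was used in counting. Cbln3, a secreted partner of cerebellin 1 made by granule cells (chr14:55878913-55884392), stood at 2007, 1950.2 and 1933 CPM in cerebellum and 0.545, 0.5404 and 0.268 in hippocampus, a log2 fold change of -12.15 ± 0.14 SE. Fat2, a giant cadherin of granule cell axons, stood at 1162, 1146 and 1137.5 CPM against 0.908, 0.432 and 0.219 CPM (-11.21 ± 0.21 SE). In all 4 genes the regions were separated widely, and lack of overlap was a condition for naming them.

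Of the 15 genes of largest difference toward cerebellum, Car8 and Ppp1r17 are also known Purkinje cell genes. Car8, a carbonic anhydrase-like protein that binds the inositol trisphosphate receptor, stood at 2224, 2270.1 and 2428 CPM in cerebellum and 7.66, 5.765 and 6.45 CPM in hippocampus (-8.45 ± 0.12 SE). Ppp1r17, a phosphatase inhibitor and substrate of cGMP-dependent kinase, stood at 222, 227 and 242 against 0.254, 0.144 and 0.195 CPM (-10.16 ± 0.11 SE). No hippocampal library came near the level of any cerebellar one in either gene. Tfap2b, a transcription factor of cerebellar GABAergic interneurons, had a log2 fold change of -8.65, and Dao, the D-serine-degrading enzyme D-amino acid oxidase, one of -8.99. Crtam, an immunoglobulin-family adhesion protein best known from T cells, stood at 84.6, 84.2 and 77.01 CPM in cerebellum and 0.145, 0 and 0.02435 CPM in hippocampus (-10.52). The remaining members of the 15 were Zfp385c (-8.42), Nrk (-8.29), Arhgef33 (-8.09), Hes3, Sycp1 and Cnpy1.

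The last 3 had 0 or 1 hippocampal counts. Sycp1, known as a protein of the synaptonemal complex of meiosis, stood at 23.3, 19.98 and 27.2 CPM in cerebellum and had 0 counts in all 3 hippocampal libraries, at least 763-fold higher in cerebellum when hippocampus is set at 3 counts over the group. Cnpy1, a canopy-family gene expressed at the embryonic midbrain-hindbrain boundary, stood at 21.6, 19.3 and 26.2 CPM in cerebellum and also had 0 hippocampal counts (at least 729-fold). It lies 28653 bases from En2, the engrailed factor of the same boundary, at chr5:28165694-28172166, and En2 stood at 145, 143 and 129 against 0.69, 0.721 and 1.07 CPM (-7.33 ± 0.13 SE). Hes3, a Notch-pathway repressor of the hindbrain, stood at 30.9, 28.05 and 22.96 CPM in cerebellum with 1 hippocampal count, 2582-fold (95% counting interval 463 to 102037) higher.

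Toward hippocampus, the largest fitted difference among the genes named was that of Crym. This gene, which encodes a thyroid hormone-binding protein, stood at 173, 144 and 177 CPM in hippocampus and 0.0359, 0.118 and 0.0729 CPM in cerebellum, a log2 fold change of 10.98 ± 0.18 SE. Ddn, the postsynaptic dendrin whose mRNA lies in dendrites, stood at 2097, 2131 and 2110.3 against 1.47, 2.12 and 1.29 CPM (10.35 ± 0.14 SE, edgeR adjusted p = 1.03e-10). Nrgn, the calmodulin-binding neurogranin of dendritic spines, stood at 766, 719 and 793 against 2.47, 2.296 and 6.51 CPM (7.59 ± 0.30 SE). The third cerebellar library held more Nrgn than the other two, and all 3 stayed far below the hippocampal ones.

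Icam5, the telencephalin of forebrain dendrites, stood at 281, 274 and 282 CPM in hippocampus against 0.323, 0.559 and 0.243 CPM (9.55 ± 0.13 SE). Chrm1, the M1 muscarinic acetylcholine receptor, stood at 272, 279.7 and 276 against 0.6096, 0.8535 and 0.535 CPM (8.7 ± 0.10 SE). Rgs14, a signalling regulator of CA2 pyramidal cells, had a log2 fold change of 8.28 and Fibcd1, a chitin-binding receptor used as a CA1 marker, one of 9.19. Mas1, the receptor of an angiotensin peptide, reached 8.76, Crhbp, which binds corticotropin-releasing hormone, 7.86, and Gda, the guanine deaminase cypin that shapes dendrites, 7.89. The forebrain factor Lhx2 had a value of 8.45. Fezf2, with 35.9, 37.5 and 34.2 CPM in hippocampus and 2 cerebellar counts, was 1835-fold (95% counting interval 508 to 15159.8) higher. Cpne7 (10.19), a copine, and Zfp831 (8.99) complete the 14 described. Zfp385c overlaps Nkiras2 on the opposite strand, so reads of this pair may have been shared.

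**Figure D2:**
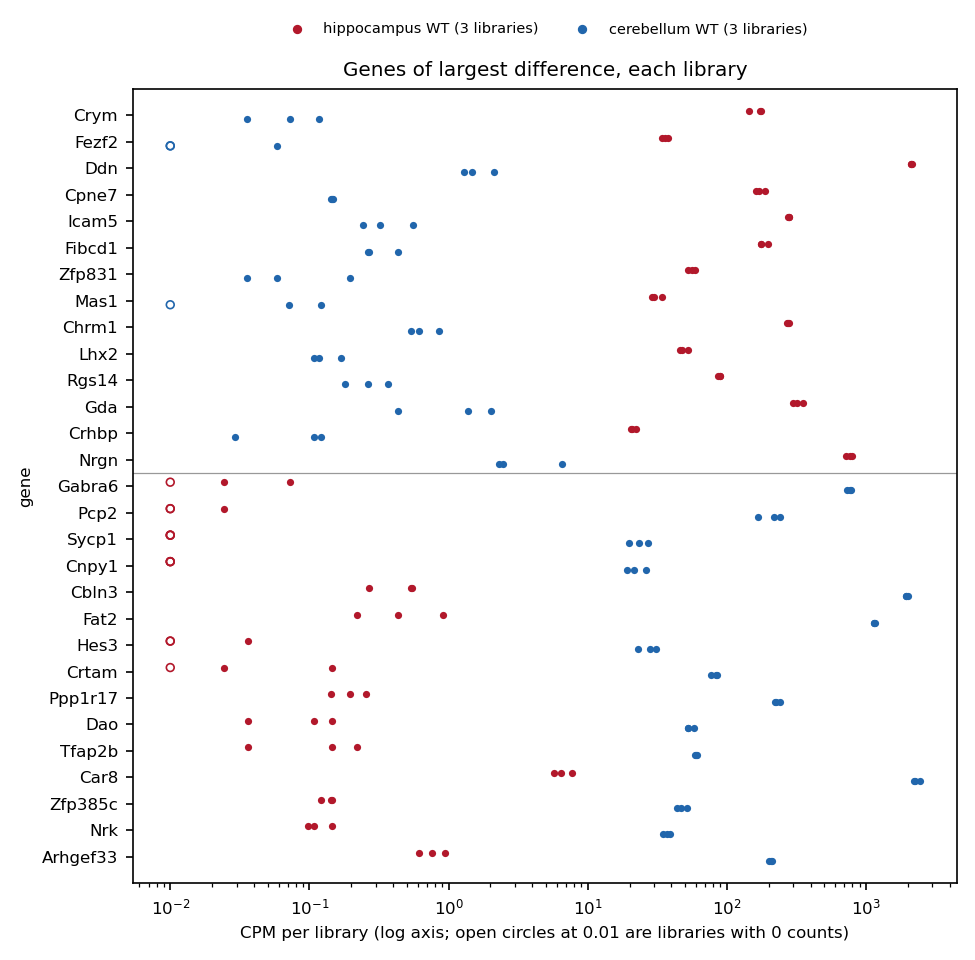
CPM of each library on a log axis for 14 of the 15 genes of largest difference toward hippocampus (upper rows) and the 15 toward cerebellum (lower rows), red for hippocampus and blue for cerebellum, with open circles at 0.01 for libraries with 0 counts. Genes were chosen to have no overlap, so in each row the 3 red and the 3 blue points are separated.

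The 250 bases before the start of 4 of these genes are shown as examples from the genes of widest difference, 2 in each direction, chosen among those whose window no annotated exon overlaps. They come from RefSeq (GRCm38.p6) and are written 5′ to 3′ on the gene's own strand, for Gabra6 (chr11:42321073-42321322, minus strand), Arhgef33 (chr17:80307157-80307406, plus strand), Icam5 (chr9:21031788-21032037, plus strand) and Fibcd1 (chr2:31846006-31846255, minus strand). Capitals mark a match to AGGTCA, the half-site of nuclear receptors such as RORα, on either strand.
Gabra6: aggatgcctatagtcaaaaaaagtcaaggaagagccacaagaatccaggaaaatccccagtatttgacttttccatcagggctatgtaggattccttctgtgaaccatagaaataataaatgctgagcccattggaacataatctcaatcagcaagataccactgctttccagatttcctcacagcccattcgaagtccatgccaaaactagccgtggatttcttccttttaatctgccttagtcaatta
Arhgef33: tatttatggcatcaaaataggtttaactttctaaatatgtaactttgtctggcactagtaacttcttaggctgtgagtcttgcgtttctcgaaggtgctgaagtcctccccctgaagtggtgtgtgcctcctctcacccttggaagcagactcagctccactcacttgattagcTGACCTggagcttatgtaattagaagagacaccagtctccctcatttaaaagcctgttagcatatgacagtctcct
Icam5: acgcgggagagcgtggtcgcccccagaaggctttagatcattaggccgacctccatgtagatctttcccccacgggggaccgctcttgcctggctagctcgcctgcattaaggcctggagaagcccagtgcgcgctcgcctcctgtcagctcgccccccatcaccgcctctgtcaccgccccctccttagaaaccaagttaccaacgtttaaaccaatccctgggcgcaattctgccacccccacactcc
Fibcd1: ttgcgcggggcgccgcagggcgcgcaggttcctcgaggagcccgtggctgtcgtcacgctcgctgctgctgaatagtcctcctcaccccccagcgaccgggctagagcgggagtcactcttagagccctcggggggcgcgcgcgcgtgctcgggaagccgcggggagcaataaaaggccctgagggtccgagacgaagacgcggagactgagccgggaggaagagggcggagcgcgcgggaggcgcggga
The window of Gabra6 had 40.8% G and C and 2 CpG dinucleotides, and that of Arhgef33 44.0% and 2. Those of Icam5 and Fibcd1 had 61.6% with 16 CpG and 71.6% with 34. Across windows of the same length, the median was 59.6% and 15 CpG for tested genes (14459 windows), 58.0% and 10 for genes at least 2-fold higher in hippocampus, and 58.8% and 12 for those at least 2-fold lower.

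AGGTCA, searched on both strands, was present in 14.0% of 32851 promoter windows in the table and in 10.8% of those of tested genes. It was present in 10.9% of windows of genes at least 2-fold higher in hippocampus and in 12.9% of those at least 2-fold lower. In Arhgef33 its match begins 76 bases before the start. CAGATG, an E-box bound by NEUROD factors, was in 14.4% of all windows, 10.5% of those of tested genes, 13.2% of the 2-fold higher group and 13.0% of the 2-fold lower group. Neither string contains the other. A match is a description of the letters in the window.

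Marker genes of the neurons that build each region separated the libraries throughout. Of 24 markers of hippocampal pyramidal and dentate granule neurons, 23 were higher in hippocampus and 0 lower, with a median log2 fold change of 4.73 beside -0.01 over all tested genes. All 16 markers of cerebellar granule neurons were lower (median -5.11), as were 20 of 21 Purkinje cell markers (median -4.08). Summed CPM of the lists ran from 7485 to 7825 in hippocampus and 611 to 650.4 in cerebellum for the first. The granule list ran from 312 to 342 and 8575 to 9249, and the Purkinje list from 1744 to 1859 and 14020 to 14640. In bulk tissue, fewer cells of a type and less RNA per cell cannot be told apart. These markers were chosen because they are known to mark the regions, so their direction is a check of the labels, and no library went against its own.

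Camk2a, the α subunit of calcium/calmodulin-dependent kinase II, stood at 3735.5, 4122 and 3895 CPM in hippocampus and 100.2, 102 and 92.6 in cerebellum (5.32 ± 0.077 SE). Hpca, the calcium sensor hippocalcin, stood at 1064 against 39.6 CPM (4.75). Prox1, the factor that specifies dentate granule cells, differed much less, with 76.7, 89.5 and 79.3 CPM in hippocampus and 39.6, 42.7 and 39.5 in cerebellum (1.01 ± 0.072 SE). Neurod2, a basic helix-loop-helix factor of excitatory neurons, was the marker not called, at 118 against 108 CPM (0.13). C1ql2 (7.37), a secreted organiser of mossy fibre synapses, Lct (6.96), Dsp (5.24) and Neurod6 (4.76) differed by more.

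Among granule cell markers, Cbln1, a secreted organiser of parallel fibre synapses, stood at 806, 752 and 629 CPM in cerebellum and 9.84, 4.18 and 3.65 CPM in hippocampus (-6.99 ± 0.31 SE). Chn2, a Rac regulator (-5.13), Neurod1 (-4.28) and Etv1 (-1.85) were also lower in hippocampus, and Cerkl differed least (-1.3). Among Purkinje markers, Itpr1, the inositol trisphosphate receptor of the endoplasmic reticulum, stood at 687 against 5542 CPM (-3.01 ± 0.081 SE), and Calb1, the calcium buffer calbindin that dentate granule cells also make, at 137 against 1115.5 CPM (-3.03). Skor2, a corepressor needed for Purkinje cell differentiation, had 0 hippocampal counts and 9.29, 10.2 and 8.82 CPM in cerebellum (at least 302-fold).

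Interneuron markers followed the region whose interneurons they mark, with exceptions in both lists. Of 18 forebrain interneuron markers, 16 were higher in hippocampus and 1 was lower (median 6.53, or 6.23 with the genes at 0 set at their bound). Sst, somatostatin, stood at 129.6, 112 and 121 CPM in hippocampus and 0.753, 1.03 and 1.58 in cerebellum (6.69). Vip (7.23) and the developmental factors Dlx1 (7.57) and Lhx6 (6.42) also stood near 0 in cerebellum, at 0.0883, 0.0798 and 0.192 CPM. Cnr1, the CB1 cannabinoid receptor of cholecystokinin interneurons, was the lower one, at 319.6, 294 and 295.5 CPM in hippocampus and 622, 643 and 663 in cerebellum (-1.08 ± 0.052 SE). It is also made by cerebellar granule cells.

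Of 12 markers of cerebellar interneurons and unipolar brush cells, 9 were lower and 2 higher in hippocampus (median -2.53). Slc6a5, the neuronal glycine transporter GlyT2 of Golgi cells, stood at 0.0241 against 15.2 CPM (723.5-fold (95% counting interval 199.9 to 5979) higher in cerebellum), and Eomes, a factor of unipolar brush cells, at 1.32 against 20.3 CPM (-3.95). Calb2, calretinin, stood at 38.9 against 391 CPM (-3.32). Grm2 (1.66), a presynaptic glutamate receptor that Golgi cells share with dentate granule cells, and Sorcs3 (1.06) were higher in hippocampus.

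**Figure D3:**
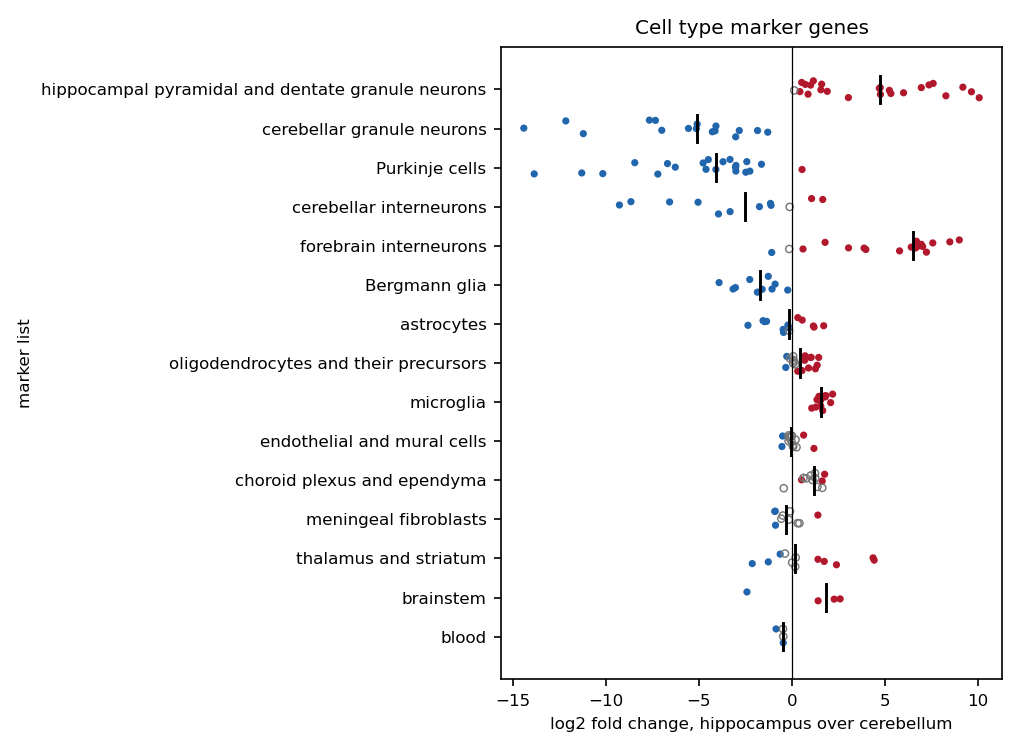
Log2 fold change of hippocampus over cerebellum (x axis) for each marker gene of 15 lists (rows), red or blue where called higher or lower in hippocampus and open where not called, with a black bar at each list's median. Medians of the hippocampal and cerebellar neuron lists and of forebrain interneurons lie far from 0. Single genes of some of these lists lie near 0 or across it. All 14 microglial genes lie to the right of 0, and endothelial genes lie around it.

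Glial lists differed in kind. All 14 microglial genes were at least 2-fold higher in hippocampus (median 1.55), with list sums of 501, 484 and 509.8 CPM in hippocampus and 174, 175 and 179 in cerebellum. Fcrls (2.19), Tmem119 (2.08) and P2ry12 (1.83), the purine receptor that steers microglial processes, differed most, and Ctss, the lysosomal cathepsin S, differed least (1.07). Csf1r, the receptor for the survival signal CSF1, stood at 102, 102 and 104 CPM in hippocampus and 34.4, 36.3 and 36.1 CPM in cerebellum (1.53 ± 0.051 SE). For comparison, 14.5% of all tested genes were called at least 2-fold higher. No library overlapped between the regions in the list sum.

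All 10 Bergmann glia markers were lower in hippocampus (median -1.73). Gdf10, a growth factor of the TGF-β family, stood at 192, 192 and 165 CPM in cerebellum and 11.8, 12.3 and 12.2 in hippocampus (-3.91 ± 0.078 SE), while Fabp7 differed little (-0.23). The 2 glial glutamate transporters went opposite ways. Slc1a3 (GLAST), the transporter typical of Bergmann glia, stood at 713.5, 681 and 681 CPM in hippocampus and 1698, 1657 and 1649.7 in cerebellum (-1.27 ± 0.052 SE). Slc1a2 (GLT-1), the transporter typical of forebrain astrocytes, stood at 4496, 4567 and 4238 against 1309, 1311 and 1451 CPM (1.71 ± 0.067 SE).

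Of 14 general astrocyte markers, 5 were higher and 8 lower in hippocampus (median -0.18). Gfap, the intermediate filament, was higher (1.19), and Aqp4, the water channel, was lower (-1.55), as were S100b (-2.36) and Aldoc (-1.36), which in cerebellum also marks subsets of Purkinje cells. Of 18 oligodendrocyte genes, 10 were higher and 2 lower (median 0.43). Their called share of 66.7% lay near the 69.4% of all tested genes. The precursor genes Pdgfra (1.44), Gpr17 (1.36) and Cspg4 (1.27) differed most. The 2 lower genes, Ugt8a (-0.33) and Ermn (-0.28), both lost the call without Hippocampus WT 2, and Ermn also without Hippocampus WT 3. The myelin gene Mbp, at 2654, 2522 and 2705 CPM in hippocampus and 2556, 2281 and 2680.0 in cerebellum (0.07), was not called.

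Blood vessel genes differed little: of 15, 2 were higher, 2 lower and 11 not called (median -0.02). Cldn5, the tight-junction claudin of the blood-brain barrier, stood at 23.6 against 20.6 CPM (0.2). Acta2, smooth muscle actin, was the one at least 2-fold apart (1.19). Of the haemoglobin and erythroid genes, Hba-a2 (-0.47) and Alas2 (-0.85) were lower in hippocampus and Hbb-bs (-0.46) and Hbb-bt (-0.48) were not called, with list sums of 196, 154.5 and 266 CPM in hippocampus and 231, 305 and 321 in cerebellum. Leaving out 1 library changed the blood calls to between 1 and 4 lower, Hba-a2 losing its call without Hippocampus WT 1 or 2 or Cerebellum WT 2 or 3. The near-identical globin copies may share reads. Without Cerebellum WT 3, the lower vessel genes numbered 4.

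Choroid plexus and ependymal genes depended on 1 library. Their summed level was 58.2, 4726 and 3678 CPM in hippocampus and 1018, 1500 and 1414 CPM in cerebellum, so 1 hippocampal library lay below and 2 lay above every cerebellar one. With all libraries, 3 of 12 were called higher in hippocampus: the ciliary genes Tmem212 (1.76), Ccdc153 (1.63) and Foxj1 (0.52). The call of Foxj1 was lost without any one of the other 5 libraries (0.30 to 0.58). Ttr had a log2 fold change of 1.12 ± 1.23 SE with an edgeR adjusted p of 0.444. Without Hippocampus WT 1, 11 of 12 were called higher, Ttr at 1.69 and Kl, the ageing-related hormone coreceptor klotho, at 1.89. Of 10 meningeal genes, 1 was called higher and 3 lower with all libraries, and 3 were called higher without Hippocampus WT 1, Igf2 among them (0.84). Without Hippocampus WT 2, the lower meningeal genes numbered 7.

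**Figure D4:**
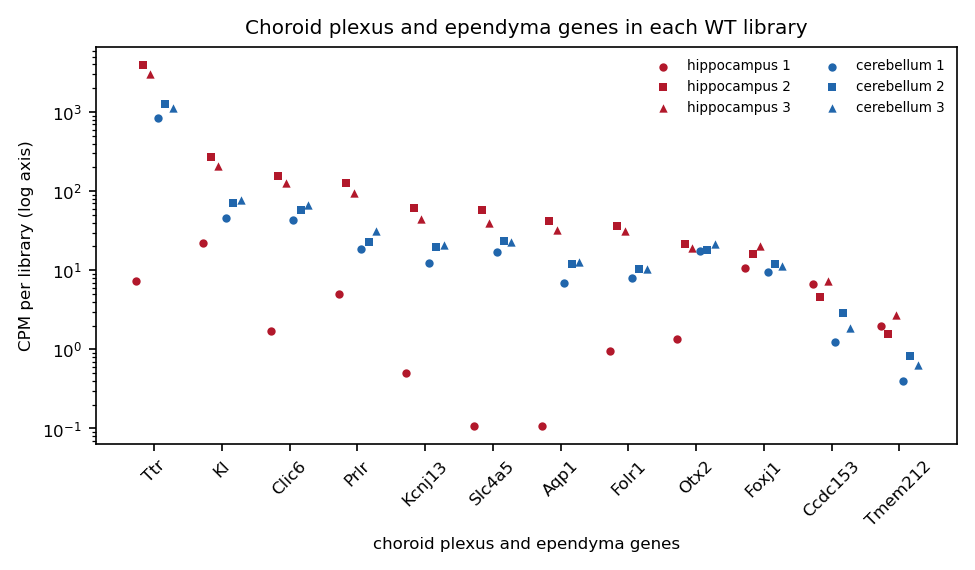
CPM per library on a log axis for 12 choroid plexus and ependymal genes, red for hippocampus, blue for cerebellum, with a marker shape per replicate number. Hippocampus WT 1 (red circles) lies far below the other libraries from Ttr to Otx2 and among them for the ciliary genes Foxj1, Ccdc153 and Tmem212.

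Genes listed as markers of other brain parts were found in both regions. Of 12 tested genes of thalamus and striatum, 5 were higher and 3 lower in hippocampus, with sums of 162 to 179 CPM in hippocampus and 269.5 to 286 in cerebellum. The 66.7% called lay near the 69.4% of all tested genes. Drd1, the D1 dopamine receptor (4.36, 5.53 against 0.272 CPM), and Tac1 (4.42) were higher. Penk (-2.13, 17.6 against 77.2 CPM), the precursor of enkephalins that Golgi cells also make, and Ppp1r1b (-1.27, 55.8 against 135 CPM) were lower. These last 2 genes gave most of the cerebellar sum. The 6 genes of brainstem neurons with a row, of which 4 were tested (3 higher and 1 lower in hippocampus), summed to 3.603 to 12.1 CPM in hippocampus and 4.59 to 6.67 in cerebellum. The part of neighbouring tissue in any result was not tested.

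Transcription factors that pattern the brain went both ways. Of 60 tested, 23 were higher and 33 lower in hippocampus (median -0.66). Several forebrain factors were high in hippocampus. Bcl11b, the zinc finger factor CTIP2, stood at 187, 198 and 184 CPM in hippocampus and 1.255, 1.32 and 1.75 CPM in cerebellum (7.01 ± 0.10 SE). Emx1 (6.0), Tbr1 (5.61) and Meis2 (2.77), all factors of cortical and hippocampal neurons, were higher as well. Zbtb18, the member of highest level in this list, was lower (-0.60, 711 against 1077 CPM), as were Id4 (-0.73) and Pou3f2 (-0.39).

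Many hindbrain and cerebellar factors were low in hippocampus, though Lmx1a was not called (-0.12). Zic1, a zinc finger factor of the granule lineage, stood at 705, 674 and 599 CPM in cerebellum and 12.2, 11.5 and 32.7 CPM in hippocampus (-5.09 ± 0.36 SE), with Hippocampus WT 3 above the other hippocampal libraries. Zic2 (-4.13), Zic4 (-3.01) and Zic5 (-3.21) were lower too. En1 stood at 2.725, 2.71 and 2.92 CPM in cerebellum with 2 hippocampal counts, 135-fold (95% counting interval 36.95 to 1117.5) higher. Pax6 (-4.08), Pax2 (-5.04) and Pax3 (-7.07), the LIM factors Lhx1 (-7.21) and Lhx5 (-6.69) of Purkinje cells, and the Barhl pair (-7.66 and -7.61) were lower.

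Within some families members went opposite ways. Meis1 was lower in hippocampus (-5.19, 1.32 against 48.3 CPM) and Meis2 higher (50.8 against 7.44 CPM). Neurod6 was higher (4.76), Neurod1 lower (-4.28, 28.4 against 552 CPM) and Neurod2 not called. Foxp1 was higher (1.66), Foxp2 (-2.42) and Foxp4 (-0.73) lower. Lhx2 and Lhx9 (3.74) were higher, Lhx1 and Lhx5 lower. Nfib, a nuclear factor I gene of both regions, was not called (-0.03), whereas Nfia (-0.98) and Nfix (-0.36) were lower.

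Receptors for glutamate, the main excitatory transmitter, showed a change of subunits between regions. Of 31 ionotropic receptor and auxiliary genes, 17 were higher and 13 lower in hippocampus (median 0.55). Among NMDA receptor subunits, Grin2b stood at 206, 239 and 208 CPM in hippocampus and 7.745, 8.74 and 8.65 in cerebellum (4.69 ± 0.085 SE). Grin2c, the subunit of mature granule cells, stood at 40.7, 37.6 and 38.99 against 298, 288 and 248 CPM (-2.83 ± 0.076 SE). The obligatory Grin1 differed by less (0.55), Grin2a was higher in hippocampus (1.91) and Grin2d was not called (0.26). Per transcript length, hippocampus held 109.7 ± 7.31 (SD) TPM of Grin2a, 74.1 ± 6.91 (SD) of Grin2b and 20.8 ± 0.68 (SD) of Grin2c, and cerebellum 31.6 ± 2.5 (SD), 3.09 ± 0.22 (SD) and 160 ± 13.15 (SD).

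Among AMPA receptor subunits, Gria1 (0.98), Gria2 (1.31) and Gria3 (0.84) were higher in hippocampus and Gria4 was lower, at 95.8, 79.3 and 75.01 CPM against 707.5, 663 and 736 (-3.08 ± 0.093 SE). The delta receptor gene Grid1 was higher (1.65). Kainate receptor genes split, with Grik4 (1.56) and Grik5 (1.67) higher and Grik1 (-1.05), Grik2 (-0.61) and Grik3 (-0.58) lower. Auxiliary proteins split as well. Cacng8 (4.15), Cacng3 (2.59), Cnih2 (3.81), Cnih3 (4.4) and Neto1 (5.69) were higher in hippocampus, and stargazin Cacng2 (-1.67), Cacng5 (-2.2) and Neto2 (-1.3) were lower.

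Metabotropic receptors and the proteins they act through also differed by isoform. Grm5, a group I receptor that acts through Gq and calcium stores, stood at 436, 432 and 405.5 CPM in hippocampus and 13.2, 12.15 and 19.8 in cerebellum (4.8 ± 0.16 SE). Per length, hippocampus held 127 ± 5.47 (SD) TPM of Grm5 and cerebellum 4.91 ± 1.41 (SD). Plcb1 (1.6), Homer1 (1.4), Homer2 (1.87) and Trpc4 (4.9) were higher in hippocampus. Plcb4 (-4.08), Homer3 (-2.48) and Itpr1 (-3.01) were lower.

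Over this whole signalling list of 37 genes, 23 were higher and 13 lower (median 0.55). Among presynaptic group II and III receptors, Grm4 of granule cell terminals stood at 648.5, 639 and 475 CPM in cerebellum and 16.4, 10.8 and 10.5 in hippocampus (-5.56 ± 0.19 SE). Grm2 (1.66), Grm3 (0.75), Grm7 (1.28) and Grm8 (0.41) were higher in hippocampus. Among classical protein kinase C genes, Prkca (2.07) and Prkcb (0.79) were higher in hippocampus, while Prkcd, of another class, was lower (-1.74).

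Inhibitory receptors also differed in their subunits. Of 32 genes, 12 were higher and 15 lower in hippocampus (median -0.16). Gabra5, the α5 subunit of extrasynaptic receptors on pyramidal cells (chr7:57407672-57510059), stood at 224.5, 222 and 221 CPM in hippocampus and 1.685, 1.001 and 1.58 in cerebellum (7.29 ± 0.12 SE). Gabrd, the δ subunit that joins α6 in granule cells, stood at 146, 155 and 123 CPM in cerebellum against 18.6, 17.04 and 16.7 (-3.02 ± 0.10 SE). Gabra2 (1.51), Gabra3 (2.35), Gabra4 (1.7) and Gabrb1 (1.47) were higher, and Gabrb2 (-0.84) was lower. Per length, hippocampus held 227.5 ± 2.88 (SD) TPM of Gabra5 and 84.3 ± 4.99 (SD) of Gabra4, and cerebellum 1.58 ± 0.42 (SD) and 28.1 ± 1.87 (SD). Gabra6 stood at 914 ± 45.7 (SD) TPM in cerebellum.

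These genes lie in clusters, and within 1 cluster neighbours could differ widely. On chromosome 11, Gabra6 lies in a cluster with Gabrb2 (chr11:42419757-42629028), whose log2 fold change was only -0.84. On chromosome 7, Gabrg3 (3.36) and Gabra5 were both higher in hippocampus. On chromosome 5, Gabra2, Gabra4 and Gabrb1 were higher and Gabrg1 was not called (0.2). For the transmitter itself, the synthesising enzymes Gad1 (-0.8) and Gad2 (-0.21) and the vesicular transporter Slc32a1 (-0.92) were lower in hippocampus. Of GABA-B receptor genes, Gabbr1 (-0.07) and Gabbr2 (-0.06) were not called.

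**Figure D5:**
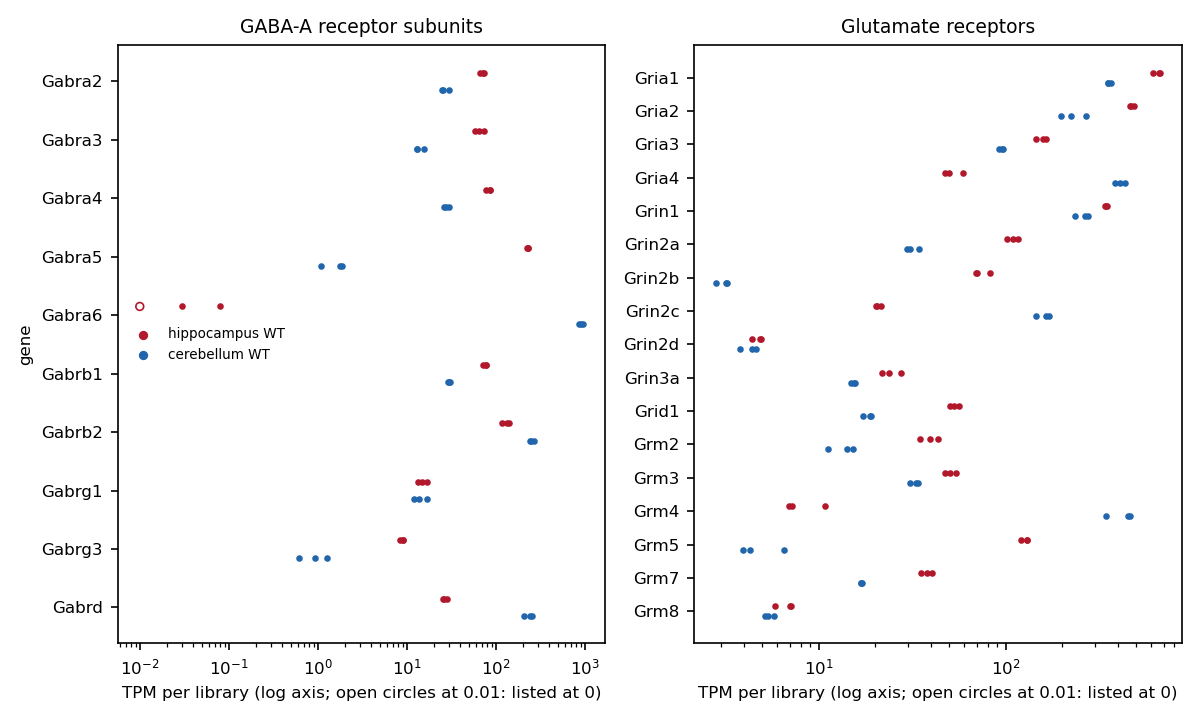
TPM of each library on log axes for 10 GABA-A receptor subunits (left) and 17 glutamate receptor genes (right), red for hippocampus and blue for cerebellum, with an open circle at 0.01 for a library listed at 0. Gabra5, Grin2b and Grm5 lie higher in hippocampus and Gabra6, Grin2c and Grm4 lie higher in cerebellum, while the values of Gabrg1 lie close together.

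Channels that shape firing also differed by subtype. Of 59 potassium and HCN channel genes, 31 were higher and 24 lower (median 0.44). Kcnq5 (5.25) and Kcnq3 (2.5), subunits of the M current, were higher in hippocampus. Kcnip2 (6.31) and the silent subunits Kcnv1 (7.54), Kcng1 (7.39) and Kcnf1 (5.77) differed more. Another silent subunit, Kcng4, was lower (-3.91, 11.4 against 174 CPM). Among the Kv3 channels of fast-firing neurons, Kcnc2 was higher (4.29), Kcnc1 (-2.03) was lower and Kcnc4 was not called (0.21). Kcnc1 stood at 713, 692 and 665 CPM in cerebellum and 173, 169 and 165 in hippocampus. Of the hyperpolarisation-activated channels, Hcn2 (-0.36) and Hcn4 (-1.25) were lower and Hcn3 higher (0.61).

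Of 28 sodium and calcium channel genes, 14 were higher and 13 lower (median 0.07). Scn3b (6.14) and Scn3a (4.2) were higher in hippocampus, and Scn1a (-1.07) and Scn4b (-2.3), a subunit of resurgent sodium current in Purkinje cells, were lower. Among T-type calcium channels, Cacna1h was higher, at 125, 137 and 130.4 CPM against 4.27, 4.06 and 4.23 (4.96 ± 0.069 SE), and Cacna1g lower, at 63.5, 61.4 and 58.01 against 369, 399 and 328 (-2.58 ± 0.077 SE), while Cacna1i was not called (-0.17). Cacna1a, the P/Q-type channel named for Purkinje cells, was lower in hippocampus (-1.73, 160.5 against 531 CPM) and the N-type Cacna1b higher (1.02). Of the α2δ subunits, Cacna2d1 (1.67) and Cacna2d3 (1.23) were higher and Cacna2d2 lower (-2.72).

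Of 42 calcium sensors and buffers, 22 were higher and 16 lower in hippocampus (median 0.39). The kinases split by isoform. Camk2a, Camkv (7.27), a kinase-like protein of dendrites, and Camk2b (0.73) were higher in hippocampus. Camk4, the nuclear kinase that acts on CREB, stood at 310.1, 297 and 264 CPM in hippocampus and 1862, 1835.5 and 2082 in cerebellum (-2.73 ± 0.082 SE), and Camk2d was lower too (-2.23). The ratio of Camk2a to Camk2b went opposite ways: 2059 ± 118.5 (SD) against 844 ± 27.8 (SD) TPM in hippocampus and 55.9 ± 1.97 (SD) against 552 ± 30.2 (SD) TPM in cerebellum. The classical buffers Calb1, Calb2 and Pvalb (-4.24, 16.1 against 303 CPM) were all lower in hippocampus. The calcineurin genes Ppp3ca (1.19) and Ppp3r1 (1.58) were higher.

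Of 40 genes of cyclic nucleotide and nitric oxide signalling, 23 were higher and 13 lower (median 0.37). The calcium-activated phosphodiesterases divided: Pde1a stood at 313, 292 and 297 CPM in hippocampus and 3.765, 5.445 and 3.28 in cerebellum (6.18 ± 0.15 SE), and Pde1c at 14.1, 14.4 and 12.96 against 185, 179 and 184 (-3.73 ± 0.061 SE). Pde2a was higher in hippocampus (3.03). Genes of cGMP signalling went both ways. The phosphodiesterase Pde5a (-3.17), the kinase Prkg1 (-1.13) and the cyclase subunit Gucy1a3 (-0.62) were lower in hippocampus, and the kinase Prkg2 (2.02) and the cyclase subunits Gucy1b3 (0.71) and Gucy1a2 (0.37) were higher. Adcy1, a calcium-stimulated adenylyl cyclase, stood at 1577 against 3642 CPM (-1.21), and Adcy2 was higher in hippocampus (1.86).

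Genes of transmitter release differed by isoform around a near-zero median. Of 54, 26 were higher and 20 lower (median 0.17). The calcium sensors Syt1 and Syt2 went opposite ways, with Syt1 at 2073, 1970.4 and 1880.0 CPM in hippocampus against 736, 728.5 and 736 (1.43 ± 0.057 SE) and Syt2, the faster isoform, at 21.7, 15.2 and 17.1 against 302, 316 and 292.5 (-4.08 ± 0.11 SE). The syntaxin gene Stx1a was higher (5.3). Among Munc13 priming factors, Unc13a (0.83) and Unc13b (1.33) were higher and Unc13c was lower (-3.4, 33.4 against 352 CPM). Of the synaptobrevins, Vamp2 was higher (0.46) and Vamp1 lower (-1.06). The vesicular glutamate transporters Slc17a7 (1.27) and Slc17a8 (6.48) were higher in hippocampus, and Slc17a6 was not called, at 29.5 against 29.05 CPM (0.01).

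Proteins that align the presynaptic and postsynaptic sides were exchanged within families. Of 51 organiser genes, 30 were higher and 16 lower in hippocampus (median 0.64). Cbln1 and Cbln3 were cerebellar, whereas Cbln2, at 12.5, 9.08 and 11.6 CPM in hippocampus and 0.287, 0.0589 and 1.24 CPM in cerebellum (4.26 ± 0.52 SE), and Cbln4 (3.37) were higher in hippocampus. The C1q-like C1ql2, C1ql3 (3.04) and C1ql1 (1.09) were higher in hippocampus, the last at 5.04 against 2.41 CPM. Lrrtm1 (4.22), Lrrtm4 (3.34) and Lrrtm2 (0.64), postsynaptic partners of neurexins, were higher, and Lrrtm3 was lower (-1.61). Of the teneurins, Tenm2, Tenm3 and Tenm4 (2.55, 2.72 and 1.88) were higher and Tenm1 was lower (-1.5). The neurexin genes Nrxn2 (-0.6) and Nrxn3 (-0.58) were lower.

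Neuropeptide genes were largely hippocampal. Of 37 tested peptides and receptors, 33 were higher in hippocampus and 3 lower (median 3.55). Npy, neuropeptide Y, stood at 26.3, 28.4 and 29.4 CPM in hippocampus and 8.93, 8.15 and 7.41 CPM in cerebellum (1.78 ± 0.095 SE), and its receptors Npy1r (4.74), Npy2r (7.37) and Npy5r (5.66) were higher too. Pdyn, the precursor of dynorphins made by dentate granule cells, stood at 10.99 against 0.1015 CPM (6.77), and Cck, cholecystokinin, at 159.9 against 19.4 CPM (3.04). Cort, cortistatin, had 1.96, 1.62 and 1.58 CPM in hippocampus and 0 cerebellar counts (at least 58.45-fold higher). The 3 lower genes were Penk (-2.13), Crhr1 (-2.68), the receptor for corticotropin-releasing hormone, and Vipr2 (-4.91). Crhr1 stood at 47.04, 53.6 and 44.6 CPM in cerebellum and 8.897, 7.46 and 6.502 in hippocampus, opposite to its ligand-binding protein Crhbp.

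Receptors for modulatory transmitters were also mostly higher in hippocampus: of 44 tested, 30 were higher and 6 lower (median 1.73). All 5 muscarinic receptors were higher, from Chrm1 (8.7) and Chrm3 (5.14) to Chrm2 (0.57). Serotonin receptors included Htr1a, at 44.4, 33.4 and 36.9 CPM in hippocampus and 0.215, 0.206 and 0.6075 CPM in cerebellum (6.69 ± 0.27 SE), Htr4 (6.37) and Htr2c (1.81), while Htr1b was lower (-1.05). Drd5, a D1-class dopamine receptor of the hippocampus, stood at 14.9 against 0.5401 CPM (4.83). Adora1, the A1 adenosine receptor, was not called, at 319.6 against 322.5 CPM (-0.01), and its sign changed between scalings. Cnr1, Chrnb2 (-0.99), P2ry1 (-1.74) and Adra2b (-3.09) were lower.

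Of 45 tested genes of growth factors and the hedgehog pathway, 14 were higher and 20 lower (median -0.13). The called share, 75.6%, was near the 69.4% of all tested genes. Bdnf, the neurotrophin of hippocampal plasticity, stood at 57.6, 56.6 and 50.5 CPM in hippocampus and 18.2, 19.9 and 18.8 in cerebellum (1.53 ± 0.071 SE), and Ntf3 was not called (-0.13). Among hedgehog genes, several were lower in hippocampus: the ligand Shh (-1.84), which Purkinje cells secrete, its receptor Ptch1 (-2.13), the coreceptors Boc (-2.83), Cdon (-1.32) and Gas1 (-1.02), and the target Gli1. Gli1 stood at 13.8, 14.5 and 12.8 CPM in cerebellum and 2.14, 1.33 and 1.19 in hippocampus (-3.16 ± 0.19 SE). Smo (at 22.35 against 22.4 CPM), Hhip (-0.04) and Gli3 (-0.08) were not called, and Gli2 was lower (-0.36). Fgf1 (-1.51), Fgf7 (-4.15) and Fgf9 (-1.46) were lower and Fgf10 higher (2.45).

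Of 38 tested Wnt pathway genes, 17 were higher and 9 lower (median 0.25), so that 26 of 38 were called beside 69.4% of all tested genes. The ligands Wnt7a and Wnt7b, close homologues, went opposite ways, with Wnt7a at 14.2, 12.6 and 14.8 CPM in hippocampus against 77.99, 79.5 and 69.3 (-2.44 ± 0.083 SE) and Wnt7b at 48.01, 47.99 and 46.4 against 10.15, 8.65 and 7.825 (2.43 ± 0.094 SE). Receptors split as well, with Fzd2 (2.13) higher and Fzd1 (-2.48) and Fzd7 (-2.45) lower. Dkk3, a secreted Dickkopf-family protein, stood at 406 against 21.1 CPM (4.27). Lgr5 (-3.12) and Lgr6 (-2.14), receptors of R-spondins, were lower, and the R-spondins Rspo2 (4.31) and Rspo3 (0.92) were higher.

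Of 22 Eph receptors and ephrins, the repulsive guidance system of axons, 11 were higher and 7 lower (median 0.64). Epha4 stood at 518, 554 and 523 CPM in hippocampus and 36.1, 39.8 and 38.8 in cerebellum (3.8 ± 0.057 SE), and Epha5 (3.24), Epha6 (3.84) and Epha7 (2.56) were higher too. Epha8 was the member most biased to cerebellum, at 3.965 against 58.4 CPM (-3.88). Ephb1 (-0.73) and Ephb2 (-0.83) were lower and Ephb3 (2.31) and Ephb6 (2.57) higher.

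Of 30 tested genes of extracellular matrix, 14 were higher and 15 lower (median 0.04). Ncan, the proteoglycan neurocan of perineuronal nets, was higher (3.19), as was the link protein Hapln1 (2.12), while Hapln4 (-0.38) and Hapln2 (-0.73) were lower. Reln, the secreted reelin that granule cells make, stood at 509, 501 and 502 CPM in cerebellum against 125.5, 110.4 and 108 (-2.14 ± 0.061 SE). The pentraxins split, with Nptx2 (4.75) and Nptxr (2.27) higher and Nptx1 (-0.33) lower.

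Of 32 tested nuclear receptors, 14 were higher and 14 lower (median -0.03). Rora, whose loss causes the staggerer cerebellar phenotype, stood at 596, 596 and 631 CPM in cerebellum and 64.35, 60.2 and 57.4 in hippocampus (-3.33 ± 0.057 SE), while Rorb was higher (0.45). The 2 corticosteroid receptors went opposite ways. Nr3c2, the mineralocorticoid receptor, stood at 181, 189 and 179.8 CPM in hippocampus and 24.4, 24.5 and 23.4 in cerebellum (2.93 ± 0.053 SE). Nr3c1, the glucocorticoid receptor, stood at 132.5, 133 and 125 against 175, 179 and 199 (-0.5 ± 0.059 SE). Thyroid hormone receptors Thra (1.17) and Thrb (2.08) and Esr1 (3.22) were higher in hippocampus, and the orphan receptors Esrrb (-2.2) and Esrrg (-2.33) lower. Nr2e1, the TLX factor of neural stem cells, stood at 13.4 against 0.0797 CPM (7.21).

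Genes induced by neuronal activity were mostly higher in hippocampus, 22 of 33, with 3 lower (median 1.4). Egr3 stood at 100, 97.6 and 95 CPM in hippocampus and 0.502, 0.765 and 0.6804 CPM in cerebellum (7.2 ± 0.10 SE), Arc at 56.98, 60.3 and 84.9 against 24.45, 23.4 and 21.3 (1.55 ± 0.14 SE), and Egr1 at 90.3 against 35.1 CPM (1.36). Fos did not follow them, at 4.21, 4.07 and 5.99 CPM in hippocampus and 3.98, 5.06 and 15.7 CPM in cerebellum (-0.8, edgeR adjusted p = 0.149), with Cerebellum WT 3 above the other libraries. The 3 lower genes were Dusp5 (-2.36), Ier2 (-1.35) and Dusp1 (-1.01), and without Cerebellum WT 3 the lower genes numbered 6. The handling of the animals before RNA extraction is not given in the labels.

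Of 27 genes of neurogenesis and cell division, 16 were higher and 6 lower (median 0.73). Genes of newborn neurons, which the dentate gyrus makes in adult life, included Dcx, doublecortin, at 31.99, 29.65 and 28.5 CPM in hippocampus and 7.996, 7.42 and 9.16 in cerebellum (1.87 ± 0.10 SE), Sox11 (2.41) and Igfbpl1 (5.58). Cell cycle genes did not move as 1 group. Mki67 (1.51, 4.23 against 1.47 CPM) and Top2a (1.69) were higher in hippocampus, Mcm2 (-0.88) and Mcm5 (-1.16) were lower, and Cdk1 (0.73), Ccna2 (0.09) and Pcna (-0.06) were not called. Eomes and Calb2, listed here for the dentate lineage, were lower in hippocampus, as given above for unipolar brush cells.

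Fmr1, the gene studied in the series (chrX:68678541-68717963), stood at 96.6, 92.1 and 87.35 CPM in WT hippocampus and 101, 105 and 121 CPM in WT cerebellum (-0.24 ± 0.075 SE, edgeR adjusted p = 0.0165). The difference was small, and the call was lost without Hippocampus WT 2 (-0.23) or Hippocampus WT 3 (-0.19). Of 40 RNA-binding and splicing regulators, 11 were higher and 21 lower in hippocampus (median -0.25). Mbnl1 was lower (-0.58 ± 0.081 SE), at 124, 126 and 119 against 176, 166 and 208.5 CPM, and its homologue Mbnl2 was not called, at 323 against 326 CPM (-0.02). Celf genes ran from Celf5 (2.83) and Celf3 (1.95) to Celf1, which was not called (-0.09). Nova2 was higher (0.95) and Nova1 lower (-1.35), Rbfox1 higher (0.49) and Rbfox3, the antigen NeuN, lower (-0.76). Khdrbs3, the splicing factor SLM2, differed most (3.5, 165 against 14.55 CPM).

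Of 40 mRNAs known as FMRP targets in brain, 21 were higher and 10 lower in hippocampus (median 0.23). The called share, 77.5%, was near the 69.4% of all tested genes. Beside Camk2a, Grm5, Grin2b and Pde2a, the scaffold genes Dlgap2 (5.65, 83.6 against 1.71 CPM) and Dlgap3 (1.3, 231 against 93.99 CPM) were higher. Map1b, a microtubule-binding protein, stood at 2387.5 against 1323 CPM (0.85), and Dlg4, which encodes PSD-95, at 714 against 345 CPM (1.05). The Shank scaffolds took 3 courses, with Shank1 higher (0.93), Shank2 lower (-0.54) and Shank3 not called (0.09). Kcnc1, Kcnd2 (-1.03), Diras2 (-1.19) and Cacna1a were lower.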

How the data were processed

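Read counts and TPM per gene had been computed and deposited by the authors. Per the submitters' processing notes, the tools were CASAVA, FastQC 0.11.8, Trimmomatic 0.39, Bowtie2 2.3.5, STAR 2.6.1, RSEM 1.3.1 and DESeq2 1.16.1 on GRCm38/mm10; which of them made the counts, and whether strand was used, is not given in the sources used here. Counts of the 6 libraries were fitted with edgeR 4.0.16 in R 4.3.3: genes kept by filterByExpr, TMM scaling, the quasi-likelihood F test and Benjamini-Hochberg adjustment over 15062 genes. CPM were computed from these counts with TMM scaling; deposited TPM were used for levels between genes. Against a group with 0 counts, a fold was computed from 3 counts over the group as a lower bound; with 1 to 3 counts, the ratio has an exact 95% interval of counting error only.

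Named genes were the 15 of largest difference each way (mean of at least 20 CPM in the higher group, no overlap), for each list the called members of largest difference (up to 5 each way) and the 2 of highest level, families of up to 8 whose members differed in direction, and Fmr1. Further members were named for their known role after their values were seen, and some genes that met the rule are not reported here. The comparison and the lists were chosen with earlier results of these data known. Positions come from GENCODE M21 (GRCm38; 95.6% of symbols matched) and promoters from RefSeq. DESeq2 1.42.0, other scalings, no filter, a fit with WT cortex, glmTreat, a replicate block and leaving out each library were alternatives. The test was checked on simulated data. Counts were per gene, and isoforms were not analysed here.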

Additional observations from a re-analysis of the deposited data

How the results depend on the processing

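The 10450 called genes became 9465 to 10409 when each library was left out in turn, and the 3652 called at least 2-fold became 3630 to 3842. In those 6 fits 8940 genes were called every time, and no called gene was called in the opposite direction. Other alternatives gave 10108 (DESeq2) to 10724 called genes (no filter), and 3651 (library size only) to 3946 at least 2-fold (no filter). edgeR's glmTreat against a 2-fold minimum called 2657. The share of calls that were higher in hippocampus was 49.0%, and 45.4% with library size only. Of the 308 named genes followed through the alternatives, 300 were called, 293 of them in every fit. Among these 308, signs turned only in some that were not called: Adora1 (0.0046 with DESeq2 size factors, 0.00056 with DESeq2, -0.057 to 0.023 with a library left out), Ttr (-0.0033 with the replicate block), Slc2a1 (-0.10 to 0.030 with a library left out), Igf2 (-0.041 to 0.84), and Mbp (-0.00040 to 0.11). Further genes named in the text were not followed in this way, and those near 0 may also change sign. Lists whose counts moved by over 1.5 times were choroid plexus (3 to 11 higher without Hippocampus WT 1), meninges (1 to 3 higher without it, 3 to 5 or 7 lower), blood (2 to between 1 and 4 lower), vessels (2 to 4 lower), oligodendrocytes (2 to 0 or 1 lower) and activity-regulated genes (3 to 6 lower without Cerebellum WT 3). The cause was not tested.

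Replicate numbers are shared by the regions, and the labels do not say that they mark an animal. Deviations from the group means correlated at 0.176, 0.0416 and 0.0618 for pairs of the same number, and Hippocampus WT 2 correlated best with Cerebellum WT 3 (0.0885), so the numbers were not taken as pairs. Erdr1, near 0 in replicate 1 of both regions and of WT cortex, is a pattern shared by number that these correlations do not show, so shared animals are possible. With the replicate block, 10272 genes were called and 3775 at least 2-fold. Genes with few counts in 1 region, such as Gabra6 and Sycp1, have ratios limited by depth.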

Other observations

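Gene families outside the lists, picked by symbol after their values were seen, also differed. Of 348 tested zinc finger genes with a symbol starting in Zfp, 201 (57.8%) were lower in hippocampus and 48 were higher (median log2 fold change -0.33), beside 35.4% lower over all tested genes. Of 97 cytosolic ribosomal protein genes (Rpl and Rps), 84 (86.6%) were higher in hippocampus and 7 lower (median 0.43), and 80 to 85 were higher under the 3 scalings. Their many processed copies in the genome may share reads. Of 43 Rbm genes 27 were lower and 5 higher, and of 20 hnRNP genes 13 were lower and 1 was higher. Of 12 protocadherins outside the gene clusters, 10 were higher in hippocampus and 1 lower (median 1.54), while the 60 tested clustered ones, whose transcripts share exons, were 17 higher and 22 lower. The 3 scalings gave the same directions for the medians given here. The scalings shift all genes by a similar small amount (ribosomal median 0.387 to 0.449), so this could hardly have come out otherwise.

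Erdr1, a gene with copies on the sex chromosomes, was the 1 gene with at most 0.1 CPM in replicate 1 of both regions and at least 5 CPM in the other replicates. Scaled by library size, it stood at 0, 18.4 and 37.1 CPM in hippocampus, 0.0364, 30.8 and 34.9 in cerebellum, and 0.0753, 11.1 and 7.996 in WT cortex.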
